A study of Schizosaccharomyces pombe with 4 samples.

Results

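The core histones of fission yeast (Schizosaccharomyces pombe) are made from 9 genes, and the variant H2A.Z from 1 more, and this account follows the RNA of these 10 genes in cells lacking set2. The 10 were taken by systematic name from the 6986 genes of the deposited table: hta1 (SPCC622.08c) and hta2 (SPAC19G12.06c) for H2A, htb1 (SPCC622.09) for H2B, hht1 (SPAC1834.04), hht2 (SPBC8D2.04) and hht3 (SPBC1105.11c) for H3, hhf1 (SPAC1834.03c), hhf2 (SPBC8D2.03c) and hhf3 (SPBC1105.12) for H4, and pht1 (SPBC11B10.10c) for H2A.Z. There were 2 libraries of set2d cells (strain SPKK1227, genotype set2d) and 2 of WT cells (strain WT972, wild type), each from asynchronous cells in log phase grown in YEA medium at 30 °C, and total RNA was sequenced. The labels name 1 strain per genotype and do not state separate cultures for the libraries of a group, so the spread behind each p-value may be only technical. All 10 genes lay above the floor of 10 normalized counts in all 4 libraries and entered the test.

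Nucleosomes hold H2A, H2B, H3 and H4, and cells need new histones when DNA is copied. Most core histone genes of fission yeast are therefore transcribed in S phase, for which the GATA-type factor Ams2 is known, while the hht2-hhf2 pair is known for expression that changes little through the cell cycle. Set2 methylates lysine 36 of H3 behind transcribing RNA polymerase II, so the products of hht1, hht2 and hht3 are its substrate. H2A.Z replaces H2A in nucleosomes near gene starts and is placed there by the SWR1 complex.

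The codon of lysine 36 is shown first, since it is the residue Set2 acts on and since it shows that the 3 H3 genes differ in sequence though not in product. Each stretch is coding bases 97 to 123 of the RefSeq ASM294v3 gene, on the coding strand, with the lysine codon in capitals (residue 36 is counted without the first methionine).
hht1: accggaggtgttAAGaagcctcatcgt
hht2: actggcggtgtcAAGaagcctcatcgt
hht3: actggtggtgttAAGaagcctcatcgt
Over the whole coding sequence hht1 and hht2 were 88.8% identical, hht1 and hht3 92.7%, and hht2 and hht3 88.3%, with 0 amino acids different in each comparison. The H4 genes were 91.3% to 93.3% identical, also with 0 amino acids different, and hta1 and hta2 differed at 3 aligned residues. Of all stretches of 100 bases in the 10 annotated transcripts, 0% occurred elsewhere in the genome, and of 50 bases only some in hhf2 (0.803%) and hhf3 (1.05%) did. The sources used here give no read length.

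Of the core genes, 8 stand in 4 divergent pairs that share the short region between their starts, and the promoters are shown because both genes of a pair lie beside the same stretch. A scan of these regions, and of the 250 bases before hta2 and pht1, for the letters AACCCT found the tandem AACCCTAACCCT on either strand in every core histone promoter. The matches are in capitals below, read as AGGGTTAGGGTT where they lie on the other strand. Regions are from RefSeq ASM294v3, and the pairs are on the plus strand, from the first gene's start to the second's.
hta1-htb1 (chrIII:1412182-1412358): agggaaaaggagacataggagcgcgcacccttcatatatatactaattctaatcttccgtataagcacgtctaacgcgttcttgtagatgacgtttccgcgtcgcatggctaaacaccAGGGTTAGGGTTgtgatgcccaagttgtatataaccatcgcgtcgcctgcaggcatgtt
hhf1-hht1 (chrI:4699600-4699731): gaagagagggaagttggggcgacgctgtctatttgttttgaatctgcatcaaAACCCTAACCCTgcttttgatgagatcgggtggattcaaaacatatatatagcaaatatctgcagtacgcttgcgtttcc
hhf2-hht2 (chrII:1364985-1365118): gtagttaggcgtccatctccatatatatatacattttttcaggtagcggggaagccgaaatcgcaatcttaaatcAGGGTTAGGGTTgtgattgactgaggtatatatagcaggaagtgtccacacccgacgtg
hht3-hhf3 (chrII:3529566-3529766): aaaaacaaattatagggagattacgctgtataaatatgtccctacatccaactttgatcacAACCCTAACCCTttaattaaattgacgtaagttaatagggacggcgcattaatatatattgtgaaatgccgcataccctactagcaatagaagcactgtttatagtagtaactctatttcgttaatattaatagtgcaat
hta2 (chrI:4053319-4053568, minus strand, 5′ to 3′ toward the gene): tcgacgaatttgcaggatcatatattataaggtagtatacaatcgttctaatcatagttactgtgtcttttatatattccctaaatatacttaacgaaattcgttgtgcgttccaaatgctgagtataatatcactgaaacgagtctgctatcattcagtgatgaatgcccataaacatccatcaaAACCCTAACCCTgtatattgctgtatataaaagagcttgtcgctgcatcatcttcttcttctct
The tandem stood in the 250 bases before 20 of 5112 protein-coding genes (0.391%), of which 9 were the core histone genes. It was not in that window of pht1, where even the single AACCCT was missing, against 8.29% of windows of that length with at least 1. The hhf2-hht2 region held the tandem like the other 3 pairs did. A match describes the letters of the window and is no measure of binding.

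Values are normalized read counts per gene, obtained from the deposited log2 values, and levels of different genes are compared only after division by annotated transcript length (per kb). Sequencing depth is unknown, since the table holds no raw counts. The deleted gene itself, set2, had 2257 and 1448 normalized counts in set2d and 10503 and 8665 in WT (limma log2 change -2.40, adjusted p = 0.00041), so its RNA was low but still counted in both set2d libraries. The 10 histone genes together held 0.644% and 0.816% of all normalized counts in set2d, against 0.785% and 0.883% in WT. Set2d replicate 1 and WT replicate 1 were thus each the lower library of their group, and many histone genes share that pattern.

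Core histone RNAs were abundant and H2A.Z RNA was far below them in both genotypes. In set2d the highest per-kb level was that of htb1 at 149663 ± 37477 normalized counts per kb, followed by hht1, hht2, hht3, hta2, hhf3, hhf1, hta1 and hhf2 at 50904 ± 2444, with pht1 last at 7668 ± 618 (SD, n = 2). In WT the order was htb1 at 173834 ± 6655, then hht1, hht3, hta2, hhf1, hht2, hhf3, hta1 and hhf2 at 41015 ± 203, with pht1 at 8563 ± 85.3 (SD, n = 2). The top pair, htb1 and hht1, overlapped in range in both genotypes. From hht3 to hhf1 in set2d, and from hht3 to hhf3 in WT, neighbours in the order overlapped too, whereas hta1, hhf2 and pht1 each lay apart from the next gene in both. In the order by means hht2 stood in place 3 in set2d and in place 6 in WT. Among 6840 genes with an annotated length, the core genes ranked between 150 and 312 by per-kb level and pht1 ranked 1320.

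**Figure D1:**
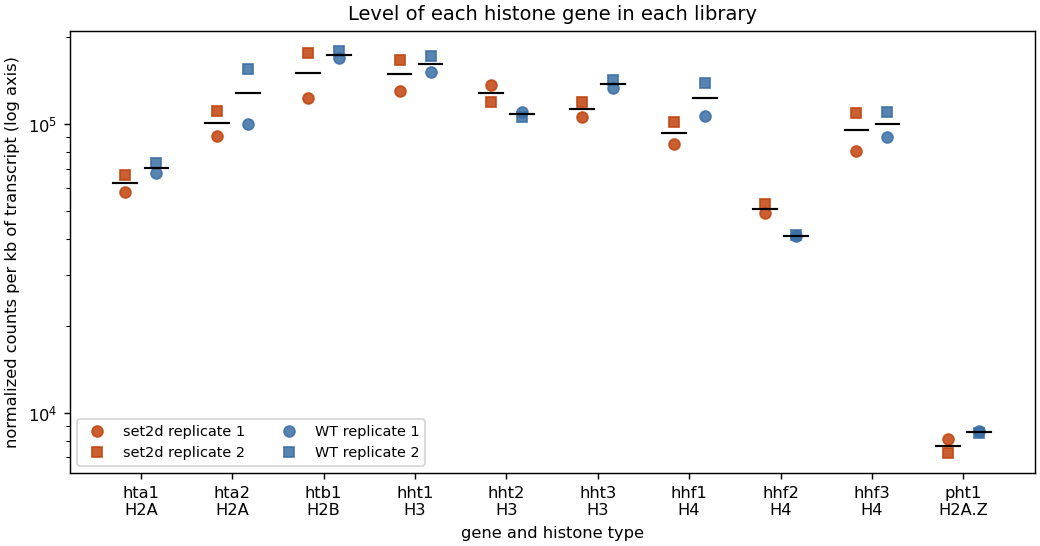
Level of each histone gene in normalized counts per kb of transcript (log axis), with set2d libraries in orange and WT libraries in blue, circles for replicate 1, squares for replicate 2 and black bars for means. Only hht2 and hhf2 have both set2d points above both WT points, and pht1 lies far below the core genes.

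No histone gene passed the test, and the changes that were seen were small and pointed both ways. In bulk RNA, fewer cells in S phase and less histone RNA per cell cannot be told apart. By limma with Benjamini-Hochberg adjustment over 6633 genes tested, 0 of 10 were higher and 0 were lower at an adjusted p under 0.05, against a background of 11.6% of tested genes higher and 2.77% lower. Without adjustment, at a limma p under 0.05, the tally was 1 member higher (hhf2) and 2 lower (hhf1 and hht3), against 18.6% and 9.62% of all genes. The balance of the background depends on scaling, with 767 genes higher and 184 lower as tested, 574 and 275 under quantile normalization, and 621 and 320 with libraries centred on their medians. The median log2 change of the 10 was -0.17, with a range of -0.39 to 0.31, and that of all tested genes was 0.01. Among 414 other genes at the level of the core histone genes the median was 0.0041, being 0.07 between replicate 1 libraries and -0.09 between replicate 2 libraries. Both set2d libraries lay above both WT libraries for 2 members, where 31.5% of tested genes did so, and below for 4, where 26.2% did. The 6 without overlap stand against 57.7% of tested genes without overlap in either direction.

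The 2 members that lay higher were hht2 and hhf2, the genes of a single divergent pair. The H4 gene hhf2 had 39144 and 41896 normalized counts in set2d replicates 1 and 2, against 32534 and 32762 in WT. Both set2d libraries were above both WT libraries, by more than either group spread. The log2 change was 0.31 (SE 0.10, limma adjusted p = 0.0922), or 1.24-fold with a 95% interval of 1.05 to 1.47 that is not adjusted for the number of genes. Its partner hht2, for H3, had 95304 and 83752 in set2d and 76927 and 74292 in WT. Here too the groups did not overlap, but the set2d libraries lay further apart. The log2 change of hht2 was 0.24 (SE 0.12, limma adjusted p = 0.223), or 1.18-fold with an interval of 0.979 to 1.43. With median centring the log2 changes were 0.23 for hhf2 and 0.16 for hht2, and under quantile normalization 0.23 and 0.25.

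The other H3 and H4 genes had lower means in set2d. The H4 gene hhf1 had 70236 and 83985 normalized counts in set2d and 88074 and 115022 in WT, and although both set2d libraries were below both WT libraries, the WT libraries differed from each other by more than the groups' nearest values did. Its log2 change was -0.39 (SE 0.16, limma adjusted p = 0.151), with an interval of -0.75 to -0.03, and it was -0.20 when WT replicate 2 was left out and -0.58 when WT replicate 1 was. The H3 gene hht3 had 80690 and 91338 in set2d and 101941 and 109105 in WT. These groups did not overlap either, and the log2 change was -0.30 (SE 0.12, limma adjusted p = 0.153). With median centring the log2 changes were -0.47 for hhf1 and -0.38 for hht3, and under quantile normalization -0.37 and -0.29. Their partners lay closer to WT. The H3 gene hht1, with 107607 and 138492 in set2d and 125567 and 142134 in WT, had a log2 change of -0.13 (interval -0.48 to 0.22). The H4 gene hhf3, with 50295 and 68049 in set2d and 56260 and 68384 in WT, had one of -0.08 (interval -0.47 to 0.30). For both of these genes the libraries of the 2 genotypes overlapped.

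The genes for H2A, H2B and H2A.Z were also lower on average, without passing. H2A comes from hta1, with 60377 and 69275 normalized counts in set2d and 70460 and 76237 in WT, and from hta2, with 79016 and 96476 in set2d and 87565 and 135801 in WT. For hta1 the groups did not overlap, while for hta2 they did and the high mean in WT came from replicate 2. The log2 changes were -0.18 for hta1 and -0.32 for hta2, and the interval of hta2, -0.79 to 0.15, was the widest of the 10. The change of hta2 was -0.0042 when WT replicate 2 was left out and -0.64 when WT replicate 1 was. H2B comes from htb1 alone, which had 162452 and 232360 in set2d and 223080 and 235493 in WT. Its log2 change of -0.24 rested on set2d replicate 1, since the difference was -0.46 between replicate 1 libraries and -0.02 between replicate 2 libraries. Without set2d replicate 2, htb1 passed at a limma adjusted p of 0.0463 with a change of -0.50, and without set2d replicate 1 its change was 0.02. With 1 set2d library left, such a p takes that library to vary as the WT libraries do. H2A.Z, from pht1, had 10067 and 8980 in set2d and 10711 and 10561 in WT. Both set2d libraries were below both WT libraries, by a log2 change of -0.16 (interval -0.44 to 0.11, limma adjusted p = 0.42).

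**Figure D2:**
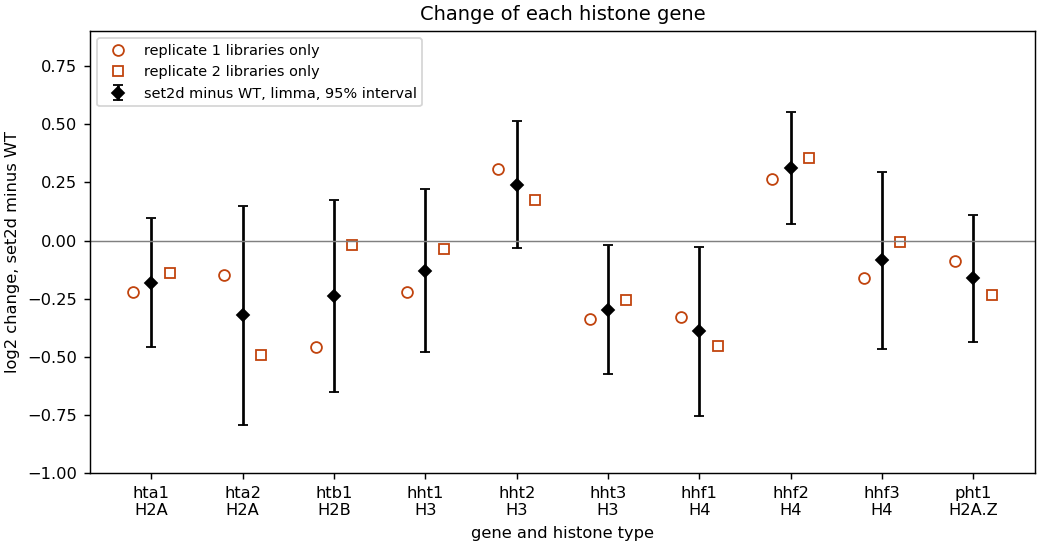
Log2 change of each histone gene, set2d minus WT (vertical axis), as the limma estimate with its 95% interval (black diamond and bar) and as the difference between replicate 1 libraries (open circle) and between replicate 2 libraries (open square). The open symbols of hht2 and hhf2 lie above 0 and those of the other 8 genes below it.

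Summed over its copies, each core histone type gave overlapping set2d and WT libraries. H3 RNA summed to 371291 and 405945 normalized counts per kb in set2d and 394445 and 420018 in WT, a difference of -0.07 in log2 means, and H4 to 214964 and 263589 in set2d and 237819 and 290184 in WT, a difference of -0.14. H2A summed to 148678 and 177249 in set2d and 168184 and 229003 in WT, a difference of -0.27 that was -0.0511 without WT replicate 2. The groups overlapped in all 3 sums (exact permutation test, two-sided, p = 0.667 for each). With 2 libraries against 2, the smallest p that this test can give is 0.333, so it cannot reach 0.05. The ratio of summed H4 to summed H3 was 0.579 and 0.649 in set2d and 0.603 and 0.691 in WT, and overlapped as well (exact permutation p = 0.667).

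The share that each copy gave did not overlap between the genotypes for 4 of the H3 and H4 genes. The levels of 57.7% of all tested genes did not overlap either, so such separation is common in these libraries. Within H4, hhf2 gave 22.9% and 19.97% of the summed per-kb level in set2d, against 17.2% and 14.2% in WT. Its share was higher in set2d by 5.74 percentage points on average, 5.69 between replicate 1 libraries and 5.78 between replicate 2 libraries. The share of hhf1 was 39.5% and 38.5% in set2d and 44.8% and 47.9% in WT, a difference of -7.34 points, whereas hhf3, at 37.6% and 41.5% in set2d and 38.0% and 37.9% in WT, overlapped. In H4, then, the higher share of hhf2 stood beside a lower share of hhf1.

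Within H3 the higher share of hht2 stood beside a lower share of hht3. The H3 gene hht2 gave 36.7% and 29.5% of the summed per-kb level in set2d, against 27.9% and 25.3% in WT. That is 6.51 points higher on average, with a spread between the set2d libraries (SD 5.09) close to the difference, which is 2.91 points without set2d replicate 1 and 10.1 without set2d replicate 2. The share of hht3 was 28.4% and 29.4% in set2d and 33.7% and 33.9% in WT, a difference of -4.95 points, and this difference was several times the spread within either group (SD 0.709 in set2d and 0.122 in WT). The share of hht1 overlapped, at 35.0% and 41.2% in set2d and 38.4% and 40.8% in WT. For each of hhf2, hhf1, hht2 and hht3 the exact permutation p of the share was 0.333, the smallest possible, and for hhf3 and hht1 it was 1. Shares of 1 histone type add to 100%, so they are not independent of each other.

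Taking both genes together, the per-kb level of the hhf2-hht2 pair was 0.462 and 0.346 of that of the other H3-H4 pairs in set2d, against 0.313 and 0.262 in WT. This ratio was formed after the values were seen and is given as a description with no test. The log2 difference was 0.48, and it was 0.56 between replicate 1 libraries and 0.41 between replicate 2 libraries. It came to 0.28 without set2d replicate 1 and 0.69 without set2d replicate 2. Between the H2A copies no such separation was seen: hta1 gave 39.1% and 37.7% in set2d and 40.4% and 32.1% in WT.

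**Figure D3:**
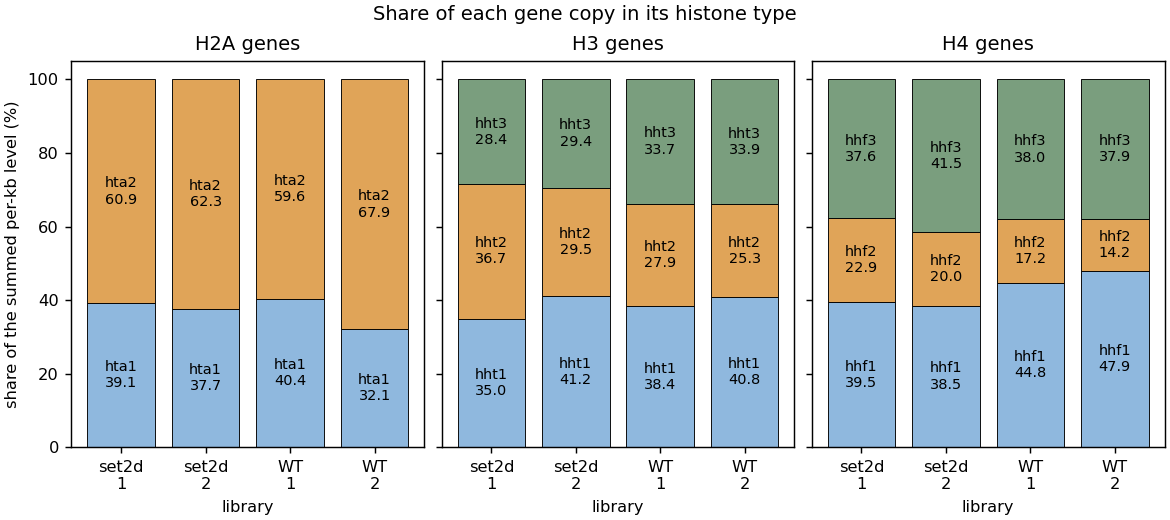
Share of each gene copy in the summed per-kb level of its histone type (vertical axis, %) in each library, set2d on the left and WT on the right of each panel, for H2A, H3 and H4. The orange hht2 and hhf2 segments are larger in both set2d libraries than in either WT library.

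Genes that share a divergent promoter had unequal per-kb levels in every library. The H2B gene htb1 stood at 2.12 and 2.64 times the per-kb level of its partner hta1 in set2d and at 2.49 and 2.43 times in WT. In the H3-H4 pairs the H4 gene was the lower partner in every library. The ratio of hhf2 to hht2 was 0.361 and 0.440 in set2d and 0.372 and 0.388 in WT. The genotypes thus overlapped in the ratio of this pair, whose genes both lay higher in set2d. For hhf3 to hht3 the ratio was 0.768 and 0.918 in set2d and 0.680 and 0.772 in WT, with a slight overlap. The ratio of hhf1 to hht1 was 0.654 and 0.608 in set2d and 0.703 and 0.811 in WT. This ratio was the only one of the 4 without overlap, where the levels of 57.7% of tested genes did not overlap either. Its log2 difference was -0.26, with -0.10 between replicate 1 libraries and -0.42 between replicate 2 libraries (exact permutation p = 0.333, the smallest possible). Leaving out 1 library at a time gave -0.36 to -0.16.

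**Figure D4:**
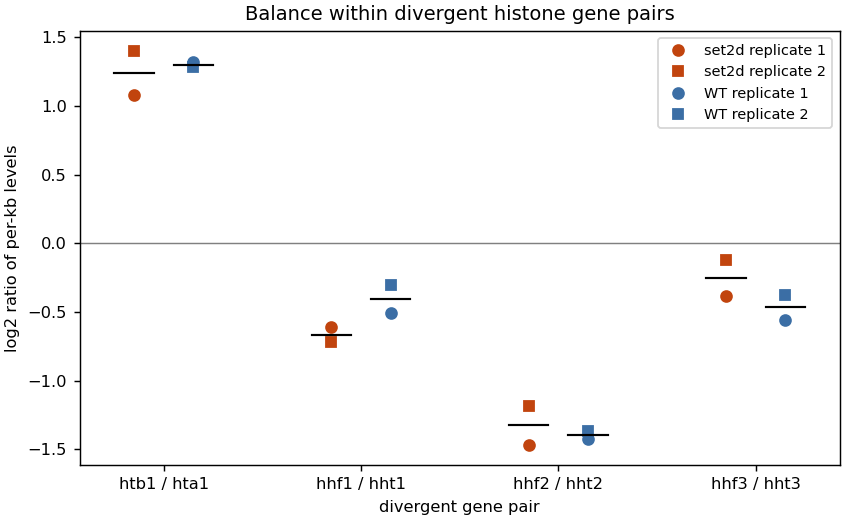
Log2 ratio of per-kb levels within each divergent pair (vertical axis), with set2d libraries in orange and WT libraries in blue, circles for replicate 1, squares for replicate 2 and black bars for means. The set2d and WT points are apart only for hhf1 over hht1.

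Of the 5 transcripts annotated over histone genes, the non-coding RNAs over hta1 and hhf3 had nearly the counts of those genes and give no separate measure. The non-coding RNA SPNCRNA.1194 covers 100% of hta1 on the opposite strand and had 60554 and 69530 normalized counts in set2d and 70638 and 76545 in WT, almost exactly those of hta1. The non-coding RNA SPNCRNA.1611 likewise covers 100% of hhf3 and had 50353 and 68098 in set2d and 56309 and 68465 in WT. For hta1 and hhf3 a change of the sense or of the antisense RNA cannot be told apart in these values. The coding gene sec5, for an exocyst subunit, overlaps 19.6% of htb1, rav1 overlaps 6.01% of hht3, and SPNCRNA.1432 overlaps 9.92% of hhf2 on the same strand. Their log2 changes were -0.07, 0.16 and -0.02, and none passed. These values may hold reads of the more abundant histone genes, above all that of sec5. In set2d sec5 had 21823 and 29830 normalized counts, beside 162452 and 232360 for htb1. SPNCRNA.1432 had only 696 and 765 normalized counts in set2d and 643 and 852 in WT, small beside hhf2.

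Some genes next to the histone loci rose. Of 12 flanking genes 11 were tested, and 3 were higher and 0 lower, against the background of 11.6% and 2.77%. These were SPBC1105.13c (uncharacterized, beyond hhf3), rsd1 (an RNA-binding protein, beyond hta2) and cdc2, the cyclin-dependent kinase gene beside pht1. SPBC1105.13c had 2126 and 1618 normalized counts in set2d and 878 and 906 in WT, a log2 change of 1.06 (limma adjusted p = 0.0139). The gene rsd1 had 8627 and 8223 in set2d and 5274 and 5833 in WT, a change of 0.60 (limma adjusted p = 0.0167). For cdc2 the values were 9795 and 12062 in set2d and 6383 and 7809 in WT, a change of 0.62 (limma adjusted p = 0.0316). The neighbouring pht1 was lower in both set2d libraries, so these adjacent genes lay on opposite sides. The calls of SPBC1105.13c and rsd1 were lost when any 1 of the 4 libraries was left out, and that of cdc2 without WT replicate 1 or either set2d replicate, under quantile normalization and with median centring. All 3 calls were lost without a filter on low values, and those of rsd1 and cdc2 without a mean-variance trend. A non-coding RNA covers 31.3% of cdc2 on the opposite strand.

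The remaining flanking genes did not pass in the fit without a replicate term. Beside hhf2-hht2, the spindle pole body gene sfi1 had a log2 change of 0.36 and vps68 of -0.30. Beside hhf1-hht1, aro1 stood at 0.10 and the mannosyltransferase gene alg9 at -0.40, with a limma adjusted p of 0.0511 that became 0.0325 under quantile normalization and 0.0271 with median centring. The values were -0.36 for SPCC622.07 and -0.44 for lmb1 beside hta1-htb1, 0.41 for SPNCRNA.1610 beside hht3 and -0.02 for mce1 beside hta2, and the transfer RNA gene SPBTRNATHR.06 beside pht1 was at the floor in all 4 libraries. The coding gene rav1 covers 100% of SPNCRNA.1610 on the opposite strand, so these may share reads. At hta1-htb1 both flanking genes had negative values like the pair itself, and at the other 3 pairs at least 1 flank lay on the opposite side.

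No regulator of histone genes passed. Of 9 tested, 0 lay past the limma threshold in either direction, with or without adjustment, and their median log2 change was -0.03. The background was 11.6% of tested genes higher and 2.77% lower, or 18.6% and 9.62% without adjustment. The gene of the S-phase activator Ams2, ams2, had 6718 and 6364 normalized counts in set2d and 8435 and 7459 in WT, a log2 change of -0.28 (limma adjusted p = 0.202). The groups of ams2 did not overlap, and neither did those of 57.7% of all tested genes. The F-box gene pof3, whose product takes part in Ams2 turnover, had a change of -0.33 (limma adjusted p = 0.257). Transcripts on the opposite strand cover 85.4% of ams2 and 48.1% of pof3. Of 10 histone chaperone genes 0 passed by limma in either direction, and 0 also when unadjusted, against the same background shares. Their median was -0.10. The largest values there were 0.16 for asf1, an H3-H4 chaperone, and -0.15 for iws1, a partner of the elongation chaperone Spt6, which a non-coding RNA covers over 100% of its length on the opposite strand.

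Of 9 genes of H2A.Z deposition 1 was higher and 0 lower, which is near the background of 11.6% of tested genes higher and 2.77% lower. It was swc2, for the subunit of the SWR1 complex that acts as a chaperone of H2A.Z. The gene swc2 had 8066 and 7973 normalized counts in set2d and 2587 and 3093 in WT. It rose 2.84-fold (limma adjusted p = 0.000519), far beyond the spread within either group, and the H2A.Z gene itself was lower in both set2d libraries without passing. The other 8 genes did not pass, and the median log2 change of the 9 was 0.02. Of 5 genes for centromeric H3 and its loading 0 passed by limma. Unadjusted, 1 was higher and 0 lower, near the 18.6% and 9.62% of all tested genes. The value of sim3, for a histone chaperone of centromeric H3, was 0.47 (limma adjusted p = 0.0552), that of mis18 was -0.27, and that of cnp1, the centromeric H3 gene itself, was -0.09. Genes on the opposite strand cover 79.5% of mis18 and 56.1% of cnp1.

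Genes of known cell cycle phase were read beside the histone genes because the cultures were asynchronous. Of 11 G1/S genes 0 passed by limma, against 11.6% of tested genes higher and 2.77% lower, and unadjusted 0 were higher and 2 lower, against 18.6% and 9.62%. They had a median log2 change of -0.10. The lowest were cdc18, for replication licensing, with 3663 and 3032 normalized counts in set2d and 5083 and 3966 in WT, and cdt2, for a ubiquitin ligase subunit of S phase, with 5407 and 4004 in set2d and 6880 and 5688 in WT. Both log2 changes came to -0.43, with a limma adjusted p of 0.163 for cdc18 and 0.167 for cdt2. The groups of these 2 genes did not overlap, but that held for 57.7% of all tested genes too. Of 14 mitosis and septation genes 2 were higher and 0 lower, near the same 11.6% and 2.77%, with a median of 0.15. One of these was bir1, for a chromosomal passenger protein, with 6000 and 6046 normalized counts in set2d and 4249 and 3392 in WT, a log2 change of 0.67 (limma adjusted p = 0.025). Its call was lost without WT replicate 2 or either set2d replicate, under quantile normalization, without a mean-variance trend and without a filter on low values. Both calls of the list were lost without set2d replicate 1 or set2d replicate 2. The part of cell cycle position in the histone values was not tested.

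**Figure D5:**
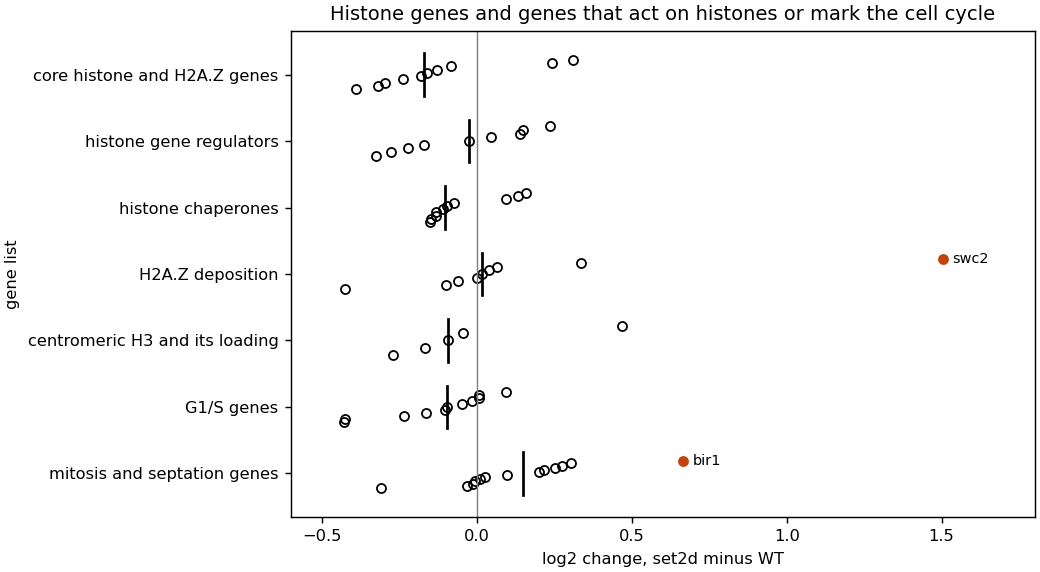
Log2 change, set2d minus WT (horizontal axis), of each histone gene and of the genes in 6 lists (1 mitosis and septation gene is not drawn, though its list's median includes it), with filled and named points for genes past the limma threshold and black bars for list medians. The 10 histone genes hold no filled point, with hht2 and hhf2 apart on the right, and swc2 is the filled point of the H2A.Z deposition list.

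The profile of the core histone genes over the 4 libraries was also that of many other transcripts. Their mean log2 values, centred on each gene's own mean, were -0.18 and 0.06 in set2d and -0.04 and 0.16 in WT, with the replicate 1 library the lower one in both genotypes. By Euclidean distance over the 4 libraries, among 5563 genes of at least 1000 normalized counts, the nearest were SPAC688.12c (uncharacterized), rga3 (a GTPase-activating protein), SPNCRNA.889, mfs3 (a transporter) and twf1 (twinfilin), at distances of 0.0119 to 0.0368. SPNCRNA.889 covers SPAC688.12c on the opposite strand, so these may share reads. Single core genes lay further from their own mean, as 65 other genes lay nearer to it than hta1 did and 3633 nearer than hht2.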

How the data were processed

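Total RNA of 4 libraries was sequenced. The tools and build named in the notes are, per the submitters' processing notes, STAR 2.5.4b, featureCounts 1.5.0-p1 and the build ASM294v2. The deposited values were read as log2 normalized counts with a floor of 10, since the lowest value in every library was log2 of 10; no label states the scale or the floor. The normalization method, annotation and strand setting are not stated in the labels or headers, so a scaling that depends on level could move single genes, and overlapping genes can share reads.

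The log2 values were tested with limma 3.58.1 (R 4.3.3), with a mean-variance trend and group as the only term, on the 6633 genes that exceeded the floor in 2 or more libraries, two-sided, with Benjamini-Hochberg adjustment and a threshold of 0.05. The procedure was checked on simulated data. The simulated libraries were independent, with no effect of the replicate number, and gene variances were drawn from the prior that limma had fitted. Changes were put into 200 genes of high mean level. There it recovered 1.2% of changes of log2 size 0.3, 20% of those of 0.5 and 93.2% of those of 1. Of its calls 3.07% were false. These rates hold for data that follow the model of the test, and the rates in the real libraries are not known. Sums, shares and pair ratios were formed from unlogged values per kb and tested by exact permutation of the 4 libraries. Names were matched for 6840 of 6986 genes. Names, transcript lengths, neighbours and sequences came from RefSeq ASM294v3 with its own annotation. Its coordinates were not used with the authors' build. Coding sequences were compared with Biopython 1.88. Members and lists were chosen with earlier results of these data known. Named were set2, all 10 members, flanking and overlapping genes, list genes that passed (at most 4 a list, or the 2 largest changes if none passed), and the 5 nearest profiles. One gene of the mitosis and septation list that passed is not reported here. The gene cnp1 and the genes outside the histones that hold the promoter tandem were added after their values were seen. Alternatives were another trend, filter, scaling, pseudocount (100), length and replicate setting, and each library left out.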

Additional observations from a re-analysis of the deposited data

How the results depend on the processing

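No histone gene passed the limma test under any alternative except 2. Libraries of the same number share a prefix in their titles, whose meaning the labels do not give, and differences between numbers 1 and 2 correlated across genes at 0.451 between the genotypes. Whether the numbers mark a shared batch is therefore not known, and the block decides the calls of hhf2 and hhf1. A fit with a replicate block called 1 histone gene higher (hhf2, limma adjusted p = 0.0293) and 1 lower (hhf1, 0.0172). With 4 libraries that fit has little of each gene's own spread left, and it gave set2 a limma adjusted p of 4.14e-71. Its calls are thus weaker than their p-values say. It called 1380 of all tested genes higher and 847 lower, and 2 higher and 1 lower in the H2A.Z deposition list, 1 higher in the centromeric H3 list and 2 lower in the G1/S list. It also called 5 more flanking genes, with limma adjusted p of 0.00195 for alg9, 0.00559 for SPNCRNA.1610, 0.0127 for lmb1, 0.0215 for sfi1 and 0.0307 for vps68. Within the replicate block, number 1 alone turned the share differences of hta1 (-1.24 points), hta2 (1.24) and hhf3 (-0.417) and the log2 ratio of hhf2 to hht2 (-0.0422), and number 2 alone turned those of hht1 (0.333) and of htb1 to hta1 (0.119). Quantile normalization turned the ratio of hhf2 to hht2 (-0.0222). The shares of hht2, hht3, hhf1 and hhf2 and the ratios of hhf1 to hht1 and hhf3 to hht3 kept their direction in all 8 alternatives. Except for hhf3 to hht3, set2d and WT did not overlap in these quantities. Their direction was thus fixed in advance wherever a library was left out or 1 replicate number was taken alone. Without a trend 499 of all genes were higher and 103 lower, without a filter 177 and 21, and with median centring 320 were lower. Without a filter set2 kept its log2 change of -2.40 but not its call (limma adjusted p = 0.0607). Of the mitosis and septation list 1 was higher without a trend, 0 without a filter and 1 under quantile normalization.

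With single libraries left out, 0 to 1 histone genes were lower, 324 to 488 of all genes higher and 45 to 86 lower, and 0 to 2 of the mitosis and septation list higher. Share differences ranged from -1.97 to 6.32 points for hta1, -6.32 to 1.97 for hta2, -4.65 to 1.54 for hht1 and -0.344 to 3.55 for hhf3. Log2 differences ranged from -0.50 to -0.0511 for summed H2A, -0.50 to 0.0197 for summed H2B, -0.29 to 0.0049 for summed H4, -0.22 to 0.10 for htb1 to hta1, -0.0724 to 0.21 for hhf2 to hht2 and -0.17 to 0.0242 for summed H4 to H3. Log2 changes ranged from -0.28 to -0.0813 for hta1, -0.64 to -0.0042 for hta2, -0.58 to -0.20 for hhf1, -0.50 to 0.0197 for htb1, -0.31 to 0.0519 for hht1, -0.30 to 0.13 for hhf3, -0.14 to 0.10 for mce1, -0.0436 to 0.36 for rav1, -0.29 to 0.16 for sec5, -0.22 to 0.18 for SPNCRNA.1432 and -0.30 to 0.13 for SPNCRNA.1611. With 1 library left in a group, it is assumed to vary like the other group. Depth is unknown, and with 2 libraries a group changes of the size seen here are hard to tell from none.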

Other observations

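The tandem AACCCTAACCCT stood within 250 bases before 11 protein-coding genes that are not histone genes, and these were looked at after the promoters had been scanned. The heat shock gene ssa1 was the only one to pass, which is near the 11.6% of all tested genes that were higher. It stood at 48209 and 28637 normalized counts in set2d and 17502 and 14049 in WT (log2 change 1.24, limma adjusted p = 0.00858), and this call was lost without set2d replicate 1 (0.0718), without a trend (0.0615) and without a filter (0.149). Its relative ssa2 had a log2 change of 0.31 and hsp90 of 0.37, both with set2d libraries above WT libraries and neither past the threshold, though both passed without set2d replicate 2 (0.0418 for ssa2 and 0.0408 for hsp90). The TATA-binding protein gene tbp1 stood at 0.38 and SPAC27E2.11c at -0.37 (limma adjusted p = 0.177 for tbp1 and 0.0956 for SPAC27E2.11c, 94.3% of which another transcript covers), and tbp1 passed without set2d replicate 1 (0.0446) and with the replicate block (0.00443), as did SPAC27E2.11c with the block (0.0437). The gene spi1, for the Ran GTPase, stood at -0.09. The remaining 5 had log2 changes of -0.02 to 0.26, and none passed.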
